A study of Mus musculus with 12 samples.

Results

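Haematopoietic stem cells (HSCs) carrying an oncogenic Nras allele were compared by how much of a GFP label they had kept, in 6 of the 12 samples of the series. Nras GFPhigh cells had kept the label and are called quiescent by the submitters, and Nras GFP- cells had lost it and are called cycling, with 3 biological replicates of each. Both groups came from the bone marrow of NrasG12D/+ mice, which had drunk doxycycline for 6 weeks and were followed for 12 weeks after it was withdrawn. All cells were sorted by flow cytometry, and their total RNA was extracted with Trizol, labelled with biotin as cRNA and hybridised to 1 Affymetrix array per sample. The other 6 samples, wild-type GFPhigh and wild-type GFP- cells treated in the same way, serve as background here. How the mutation and the GFP reporter are driven, the surface markers of the sort, the age and sex of the mice and whether a replicate is 1 mouse or a pool are not given in the sources used here.

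HSCs are the marrow cells from which all blood lineages descend, and most of them divide seldom. In a label retention experiment a stable fluorescent protein is made while doxycycline is given, and after it is withdrawn each division shares the label between the daughter cells, so that cells that divide often lose it. Nras is a small GTPase that relays signals from growth factor and cytokine receptors to the RAF, MEK and ERK kinases and to PI3K, and the G12D change keeps it in its GTP-bound, active form. Entry into the cell cycle passes through G1 cyclins and CDK6, release of E2F factors, loading of the MCM helicase at replication origins, DNA synthesis and then mitosis.

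Values are MAS5 signals, in linear intensity units, and are given in the order of replicates 1, 2 and 3. A fold change is a log2 difference, Nras GFPhigh minus Nras GFP-, so a negative one means lower in the label-retaining cells. Each of 12083 tested genes was represented by 1 probe set, and the p values are from limma, fitted over all 12 arrays and unadjusted unless called adjusted. A gene is called separated here when its unadjusted p was under 0.05 and all 3 Nras GFPhigh signals lay on one side of all 3 Nras GFP- signals. On these arrays the median signal was 53.5, 129.6 and 86.9 in Nras GFPhigh samples, against 44, 51.9 and 95.7 in Nras GFP- samples. The array weight, an estimate of how closely an array follows its group, was 0.403, 0.503 and 0.903 in Nras GFPhigh samples, against 0.308, 0.944 and 1.58 in Nras GFP- samples. Gapdh is probed at its 3' and its 5' end, and the ratio of the 3' signal over the 5' one, higher in degraded RNA, was 7.28, 2.83 and 5.7 in Nras GFPhigh samples, against 3.83, 3.51 and 3.32 in Nras GFP- samples. Xist, the RNA that silences an X chromosome, was low and the Y-linked Eif2s3y high in replicate 3 of every group. In replicates 1 and 2 Xist was high and Eif2s3y lower than in replicate 3. Eif2s3y nevertheless read 674.7 in Nras GFPhigh replicate 2, above that array's upper quartile of 518.9, beside 3876.6 in Nras GFPhigh replicate 3. As replicate 3 differed from the others in both genes, fold changes within replicates 1 and 2 and within replicate 3 are set beside the main results.

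Of 12 genes listed as defining markers of HSCs, 10 were on the array. The receptor tyrosine kinase Kit read 4281, 2228 and 3226 in Nras GFPhigh cells, against 2974, 2384 and 3075 in Nras GFP- cells, and the transcription factor Mecom read 11336, 6889 and 7323 in Nras GFPhigh cells, against 7713, 5520.2 and 4835 in Nras GFP- cells. All 10 markers lay above the median of every Nras array, with 1 exception, Ctnnal1 in Nras GFP- replicate 2. Nras itself read 3004, 2409.7 and 4275 in Nras GFPhigh cells, against 3567, 3846 and 3530.4 in Nras GFP- cells, and the groups overlapped, with a log2 fold change of -0.22 ± 0.36 (SE). The allele differs from the normal one by a point change, so this signal does not check the genotype.

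No gene passed an adjusted p under 0.05 in Nras GFPhigh against Nras GFP- cells. The smallest adjusted p was 0.105, shared by 11 genes, and 1470 genes, 12.2%, had an unadjusted p under 0.05. That count was 878 with array weights and 781 when only the 6 Nras samples were fitted, where the smallest adjusted p was 0.469. In wild-type cells, in the model of all 12 arrays with its pooled spread, the count was 266, 2.2%. Of the 1470 genes, 749 (6.2%) read higher and 721 (5.97%) lower in Nras GFPhigh cells. All 3 signals of one group lay on one side of the other's, at any p, for 810 genes higher (6.7%) and 750 lower (6.21%) in Nras GFPhigh cells. Separated genes numbered 448 higher (3.71%) and 492 lower (4.07%), and 53.2% of all tested genes had a fold change above 0, with a median of 0.082. The count of 0 rests on the set of arrays. Without Nras GFPhigh replicate 3, 161 genes passed, 73 higher and 88 lower, and 154 of them were at an unadjusted p under 0.05 with all arrays. Without Nras GFP- replicate 3 the count was 12, and without Nras GFPhigh replicate 2 it was 1, the nuclear envelope gene Nrm. Separated genes numbered 793 higher and 880 lower without Nras GFPhigh replicate 3, and 817 higher and 545 lower without Nras GFP- replicate 3, where a group of 2 arrays also separates more easily than one of 3. In wild-type cells the same comparison separated 109 genes in each direction, 0.902%.

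The direction of the fold changes varied with the signal. The tested genes were cut into 10 groups of equal size by mean signal. In group 1, of lowest signal, the median fold change was 0.73, and 5.62% were separated higher against 0.91% separated lower. In group 7 it was -0.23, with 2.48% separated higher and 6.21% lower. In group 10, of highest signal, it was 0.13, with 7.61% separated higher and 3.06% lower. Quantile normalization brought group 1 to 0.18 and group 10 to -0.041. The lower quartile of signals was 13.1, 31.9 and 18 in Nras GFPhigh samples, against 10.9, 11.9 and 14.1 in Nras GFP- samples, and what part of the low-signal genes' fold changes follows from it was not tested. A fold change of a gene whose signals in one group lie near this quartile depends on the background, so beside the largest Nras fold changes of such genes the value after adding 100 units to every signal is also given.

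**Figure D1:**
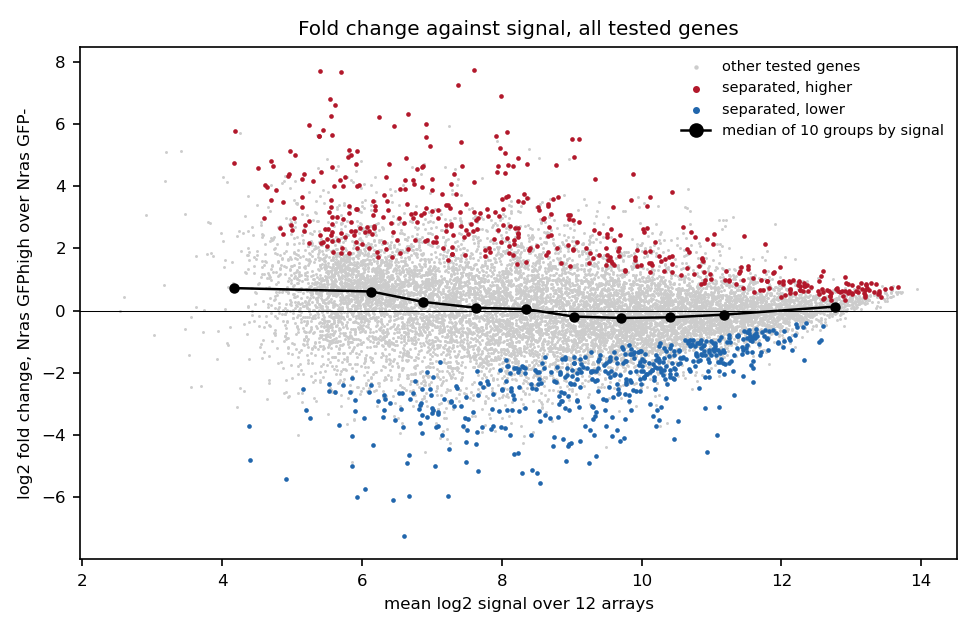
Each point is 1 of the 12083 tested genes, with its mean log2 signal over 12 arrays on the x axis and its log2 fold change, Nras GFPhigh over Nras GFP-, on the y axis; red and blue mark the 448 separated higher and 492 separated lower genes. The black line joins the medians of 10 groups of genes by signal, which run between 0.73 in group 1 and -0.23 in group 7, and genes separated lower lie mostly at middle to high signals.

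Genes that license replication origins and copy DNA read lower in Nras GFPhigh cells. Of 20 tested genes of replication licensing and the MCM helicase, 17 had a fold change below 0, against 46.8% of all genes. Of the 20, 5 (25%) were separated lower and 0 higher, beside 4.07% and 3.71% of all genes. Their median was -0.97, -0.90 within replicates 1 and 2 and -1.43 within replicate 3. Of 26 genes of DNA synthesis and nucleotide supply, 23 lay below 0, and the median was -0.94. Of the 26, 7 (26.9%) were separated lower and none higher, beside the same 4.07% and 3.71%. The summed signal of these DNA synthesis genes was 40283, 37689 and 39443 in Nras GFPhigh cells, against 60761, 67843 and 70332 in Nras GFP- cells, without overlap.

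The MCM proteins are the helicase that is loaded at origins in G1. Mcm7 read 1077, 3662 and 4856 in Nras GFPhigh cells, against 9741, 6789 and 7712 in Nras GFP- cells, a log2 fold change of -1.58 ± 0.42 (SE). Its lowest signal was in Nras GFPhigh replicate 1, and the change was -2.03 within replicates 1 and 2 and -0.67 within replicate 3. Mcm3 read 1925, 3416 and 1164 in Nras GFPhigh cells, against 8057, 3718 and 4872 in Nras GFP- cells, where Nras GFPhigh replicate 2 and Nras GFP- replicate 2 nearly met. Mcm5 read 3072, 1750.3 and 2904 in Nras GFPhigh cells, against 5849, 3826 and 5131 in Nras GFP- cells. The other helicase genes were not all alike: Mcm6 read 7639, 6850 and 7252 in Nras GFPhigh cells, against 10298, 7389 and 8221 in Nras GFP- cells, and Mcm2 read 129.9, 313 and 541 in Nras GFPhigh cells, against 341, 542 and 705 in Nras GFP- cells, and the groups overlapped in both.

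Of the genes that place and fire origins, Orc2, a subunit of the origin recognition complex, read 116, 486 and 592 in Nras GFPhigh cells, against 1459, 2255 and 1990.1 in Nras GFP- cells. All 3 label-retaining samples lay well below the others, and the log2 fold change was -2.54 ± 0.66 (SE). Dbf4, the activating partner of the CDC7 kinase that fires origins, read 97.4, 202 and 312 in Nras GFPhigh cells, against 2051, 860.3 and 829 in Nras GFP- cells, a log2 fold change of -2.63 ± 0.75 (SE). Other members went the other way without separating: Orc1 read 1031, 104 and 744 in Nras GFPhigh cells, against 36.2, 74.5 and 596 in Nras GFP- cells.

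Lig1, the ligase that seals Okazaki fragments, was among the 11 genes at the smallest adjusted p. It read 47.1, 294 and 859 in Nras GFPhigh cells, against 7440.4, 3840.2 and 5184 in Nras GFP- cells, with no overlap and a log2 fold change of -4.53 ± 0.78 (SE). The change was -5.50 within replicates 1 and 2 and -2.59 within replicate 3. In wild-type samples Lig1 read 3751, 4261 and 2636 in wild-type GFPhigh cells, against 3808, 4094 and 2652 in wild-type GFP- cells, a log2 fold change of 0.0092. The difference between the genotypes was -4.54 on the log2 scale, with an unadjusted interaction p of 0.00124 and an adjusted one of 0.956.

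Dut, which clears dUTP so that uracil is not built into DNA, read 2200.5, 2201 and 3019.9 in Nras GFPhigh cells, against 6767, 5098 and 5697 in Nras GFP- cells, a log2 fold change of -1.25 ± 0.30 (SE) and the same direction within replicates 1 and 2 and within replicate 3, -1.42 and -0.92. Rpa1, the large subunit of the protein that coats single-stranded DNA, read 4014, 1661 and 2836 in Nras GFPhigh cells, against 7606, 5701 and 5090.4 in Nras GFP- cells, a log2 fold change of -1.18 ± 0.33 (SE). Its 2 probe sets gave fold changes of -1.18 and -1.16. Uhrf1, which brings the maintenance methyltransferase to newly copied DNA, read 36, 375 and 169.8 in Nras GFPhigh cells, against 924, 1678 and 1862 in Nras GFP- cells, a log2 fold change of -3.43 ± 1.10 (SE). Rrm2, the regulated subunit of ribonucleotide reductase, read 374, 1665 and 394 in Nras GFPhigh cells, against 1942, 1879 and 2710.5 in Nras GFP- cells, so that Nras GFPhigh replicate 2 lay close to the cycling samples. Pola1, the catalytic subunit of the polymerase that starts each strand, read 276, 404 and 663 in Nras GFPhigh cells, against 1726, 799 and 1594 in Nras GFP- cells.

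Other genes of the fork overlapped between the groups. Pcna, the sliding clamp, read 7948, 8708 and 8184 in Nras GFPhigh cells, against 7694, 8493 and 8054 in Nras GFP- cells, a log2 fold change of 0.035. Dnmt1, the maintenance methyltransferase, read 5011, 6016 and 4404 in Nras GFPhigh cells, against 5482, 5550.1 and 5194 in Nras GFP- cells.

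The cycling samples read high for Mcm7 and Rpa1, and both genes have an E2F word in their promoter window. They are printed because E2F sites are the element through which the G1/S genes are known to be switched on. The windows run from 250 bases before to 50 after the most upstream RefSeq start, on GRCm38.p6, 5′ to 3′ on the gene's strand, with matches on either strand in capitals: TTCCCGC or TTTGGCG for E2F and CCAAT for the CCAAT box. Mcm7 lies on the minus strand at chr5:138171834-138172133, and Rpa1 on the minus strand at chr11:75348334-75348633.
Mcm7: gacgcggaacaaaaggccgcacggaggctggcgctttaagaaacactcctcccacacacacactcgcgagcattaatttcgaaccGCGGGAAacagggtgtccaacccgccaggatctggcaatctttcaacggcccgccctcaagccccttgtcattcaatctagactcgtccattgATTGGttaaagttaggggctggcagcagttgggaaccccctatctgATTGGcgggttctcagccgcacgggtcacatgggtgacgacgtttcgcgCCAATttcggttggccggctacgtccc
Rpa1: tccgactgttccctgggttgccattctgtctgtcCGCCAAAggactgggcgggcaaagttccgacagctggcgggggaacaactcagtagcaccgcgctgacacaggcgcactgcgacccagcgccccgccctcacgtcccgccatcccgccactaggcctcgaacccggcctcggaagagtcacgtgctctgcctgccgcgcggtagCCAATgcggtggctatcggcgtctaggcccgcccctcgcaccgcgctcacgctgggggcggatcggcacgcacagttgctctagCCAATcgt
An E2F word was found in 9 of 15 replication licensing genes (60%) and in 12 of 23 DNA synthesis genes (52.2%) with a window in the RefSeq table. It was found in 10.8% of the 9803 tested genes with a window and in 6.08% of all 27025 windows. Dut, Orc2 and Dbf4, which also read lower in Nras GFPhigh cells, held no E2F word at any of their RefSeq starts. The most upstream window of Lig1 held none of the words searched, and 1 of its 3 RefSeq starts held an E2F word. These matches are letters in a window and were not tested as binding sites.

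**Figure D2:**
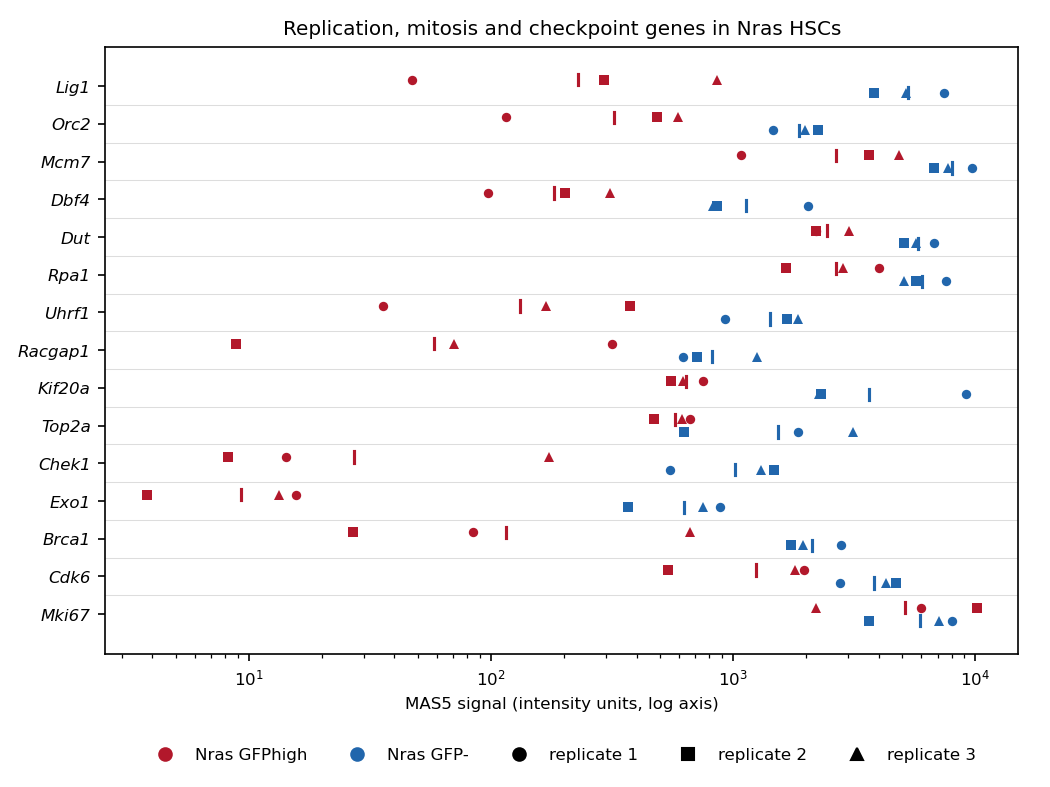
Signals of 15 genes of replication, mitosis, checkpoint and G1 control in each Nras sample, on a log axis of intensity units; red is Nras GFPhigh, blue is Nras GFP-, shapes are replicates, and vertical bars are group geometric means. The groups do not overlap for 13 of the 15 genes, whereas those of Top2a and Mki67 do.

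Mitotic genes mostly read lower in Nras GFPhigh cells, but with wide spread between samples. Of 28 tested genes, 26 had a fold change below 0, with a median of -1.40, and 2 were separated lower and 0 higher, beside 4.07% and 3.71% of all genes. The list score, the median deviation of the members from their mean over the 6 Nras arrays in log2 units, was -1.27, -0.16 and -0.32 in Nras GFPhigh cells, against 0.56, 0.0012 and 2.03 in Nras GFP- cells. The highest score belonged to Nras GFP- replicate 3 and the lowest to Nras GFPhigh replicate 1, while both replicates 2 lay close together. Kif20a, a kinesin of the central spindle, read 751, 554 and 623 in Nras GFPhigh cells, against 9155, 2309.5 and 2270.3 in Nras GFP- cells, and all 3 cycling samples lay above. The difference was -2.51 ± 0.95 (SE) on the log2 scale. Racgap1, a part of the centralspindlin complex of cytokinesis, read 318, 8.9 and 70.7 in Nras GFPhigh cells, against 619, 710.4 and 1257 in Nras GFP- cells, a log2 fold change of -3.81 ± 1.36 (SE) and -2.22 after adding 100 units. Its 3 probe sets disagreed, between -3.81 and 1.49.

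Top2a, the topoisomerase that untangles sister chromosomes, read 666, 470.4 and 614 in Nras GFPhigh cells, against 1856, 627 and 3142 in Nras GFP- cells, where Nras GFP- replicate 2 lay within the range of the label-retaining samples. Cdk1, the mitotic kinase, read 107, 549 and 229.9 in Nras GFPhigh cells, against 565, 451 and 860.4 in Nras GFP- cells, and the groups overlapped, with a log2 fold change of -1.34 ± 0.75 (SE). Mki67, the usual marker of proliferating cells, read 5951, 10165 and 2206 in Nras GFPhigh cells, against 7996, 3629 and 7084 in Nras GFP- cells, and Nras GFPhigh replicate 2 was the highest of all 6. Its log2 fold change was -0.21 ± 1.19 (SE), 0.53 within replicates 1 and 2 and -1.68 within replicate 3. The single-gene tests of Cdk1 and Mki67 gave unadjusted p values of 0.0977 and 0.864 in limma.

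Promoters of the mitotic genes hold other words. The CHR element, TTTGAA or TTTAAA, to which the DREAM and MMB complexes are known to bind, was found in 19 of 23 mitotic windows (82.6%), against 19.3% of tested genes. A CCAAT word was found in 17 (73.9%), against 38.5%, and an E2F word in 0 of 23. Racgap1 and Top2a are shown as examples of listed mitotic genes at an unadjusted p under 0.05 in limma whose windows hold a CHR and a CCAAT word, in capitals. Racgap1 lies on the minus strand at chr15:99651607-99651906, and Top2a on the minus strand at chr11:99024140-99024439.
Racgap1: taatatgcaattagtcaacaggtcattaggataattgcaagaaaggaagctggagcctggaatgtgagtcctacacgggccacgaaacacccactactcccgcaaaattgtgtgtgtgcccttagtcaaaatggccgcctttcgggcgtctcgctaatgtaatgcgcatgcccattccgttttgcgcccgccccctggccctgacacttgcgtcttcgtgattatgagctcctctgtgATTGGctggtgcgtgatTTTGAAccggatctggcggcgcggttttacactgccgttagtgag
Top2a: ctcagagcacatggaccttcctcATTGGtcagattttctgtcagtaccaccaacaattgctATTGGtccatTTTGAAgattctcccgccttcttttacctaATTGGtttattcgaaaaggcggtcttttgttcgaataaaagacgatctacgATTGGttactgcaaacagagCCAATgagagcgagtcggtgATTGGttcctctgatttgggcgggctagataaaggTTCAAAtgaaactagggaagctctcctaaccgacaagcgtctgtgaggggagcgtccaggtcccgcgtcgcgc
These motif counts describe the lists, and no test was made of them.

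Among cyclins, CDKs and pocket proteins, 17 of 23 had a fold change below 0, with 2 separated lower, which is 8.7% beside 4.07% of all genes, and a median of -0.46. Cdk6, the G1 kinase whose level sets how readily HSCs leave rest, read 1969, 541 and 1808 in Nras GFPhigh cells, against 2771, 4694 and 4265 in Nras GFP- cells. All 3 label-retaining samples lay below, the log2 fold change was -1.62 ± 0.54 (SE), and in wild-type cells it was -1.52. Tfdp1, the dimer partner of E2F factors, read 737, 1554 and 1553 in Nras GFPhigh cells, against 2476, 2262 and 2735 in Nras GFP- cells. E2f8, an E2F that acts late in S phase, read 457, 138 and 14.6 in Nras GFPhigh cells, against 1115, 398 and 1119 in Nras GFP- cells, and Nras GFPhigh replicate 1 overlapped the cycling samples. Ccnd1, a G1 cyclin known as a target of ERK, read 2643, 2499 and 2554 in Nras GFPhigh cells, against 4440.5, 3311 and 3084 in Nras GFP- cells, without overlap but with an unadjusted p of 0.188.

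Of the CDK inhibitors, Cdkn1c, which encodes p57 and is known to hold HSCs at rest, read 877, 1502 and 2103 in Nras GFPhigh cells, against 203, 484 and 799 in Nras GFP- cells. Its log2 fold change was 1.71 ± 0.69 (SE), and the lowest label-retaining signal lay just above the highest cycling one. The p21 gene Cdkn1a read 3112, 135 and 509.7 in Nras GFPhigh cells, against 30.7, 36.8 and 868 in Nras GFP- cells, highest in Nras GFPhigh replicate 1, and its fold change was 4.27 within replicates 1 and 2 and -0.77 within replicate 3. The p27 gene Cdkn1b read 1725, 1372 and 1940.5 in Nras GFPhigh cells, against 2598, 1109.5 and 1803 in Nras GFP- cells, with overlapping groups.

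Genes of the checkpoints and of DNA repair mostly read lower in Nras GFPhigh cells, with 22 of 30 below 0, against 46.8% of all genes. Separated lower were 6 (20%) and higher 1 (3.33%), beside 4.07% and 3.71% of all genes. The list median was -1.01. Within replicates 1 and 2 the median was -0.57, and within replicate 3 it was -0.83. Chek1, the kinase that slows the cycle when forks stall, read 14.3, 8.2 and 173 in Nras GFPhigh cells, against 550.4, 1478 and 1309 in Nras GFP- cells. Its log2 fold change was -5.23 ± 1.03 (SE), or -2.91 after adding 100 units, and its 5 probe sets lay between -5.23 and -0.83. Exo1, an exonuclease of mismatch repair and end resection, read 15.7, 3.8 and 13.4 in Nras GFPhigh cells, against 880.2, 370 and 755 in Nras GFP- cells, a log2 fold change of -6.08 ± 1.43 (SE) and -2.73 after adding 100 units. Brca1, needed for homologous recombination, read 84.3, 27.1 and 667 in Nras GFPhigh cells, against 2791, 1739 and 1950 in Nras GFP- cells. All cycling samples lay above, but the fold change was -5.53 within replicates 1 and 2 and -1.55 within replicate 3.

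Fancb, a part of the Fanconi core complex for crosslink repair, is not in the list of repair genes. It was among the 12 separated lower genes of smallest p. Fancb read 3.7, 3 and 27.7 in Nras GFPhigh cells, against 1045, 486 and 149 in Nras GFP- cells, with a log2 fold change of -5.97 and -2.31 after adding 100 units. In wild-type samples Fancb read 184, 1541 and 167 in wild-type GFPhigh cells, against 266, 86.8 and 47.7 in wild-type GFP- cells, and the interaction was -7.78 on the log2 scale at an unadjusted p of 0.000553 in limma. A second probe set of Fancb gave a fold change of -0.022 in the Nras cells, so the 2 did not agree. Msh6, a mismatch recognition protein, read 947, 866 and 2622 in Nras GFPhigh cells, against 2516, 3046 and 2849 in Nras GFP- cells, where Nras GFPhigh replicate 3 was in the range of the cycling samples. The single member separated higher was Ercc1, a nuclease subunit of excision repair, which read 1362, 1251 and 943 in Nras GFPhigh cells, against 60.1, 431 and 746 in Nras GFP- cells.

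Depdc1b and Atad2 were also among the 12 separated lower genes of smallest p and, like Fancb, are in none of the lists above. Depdc1b, a gene of cell division, read 22, 187 and 31.9 in Nras GFPhigh cells, against 2472, 2114 and 1333 in Nras GFP- cells, a log2 fold change of -5.23 ± 0.97 (SE) and -3.60 after adding 100 units. The fold change was -5.16 within replicates 1 and 2 and -5.39 within replicate 3. Atad2, a chromatin ATPase of S phase, read 355, 291 and 2001 in Nras GFPhigh cells, against 6631, 4011 and 4916 in Nras GFP- cells, a log2 fold change of -3.10 ± 0.60 (SE). Of 26 chromatin and DNA methylation genes, 15 had a fold change above 0, against 53.2% of all genes. The list median was 0.072, or -0.42 after median centring. Separated lower were 4 (15.4%) and higher 0, beside 4.07% and 3.71% of all genes. The 4 were Ezh2, Hdac2, Kdm6b and Smarca4. Ezh2, the methyltransferase of polycomb repressive complex 2, read 840, 262 and 556 in Nras GFPhigh cells, against 1197, 2388 and 2877 in Nras GFP- cells, a log2 fold change of -2.02 ± 0.59 (SE), and in wild-type cells it was -1.96. Hdac2, a histone deacetylase, had a narrow spread, 4929.7, 5220.4 and 5322 in Nras GFPhigh cells, against 7375, 7627 and 6783 in Nras GFP- cells, a log2 fold change of -0.49 ± 0.16 (SE). Nrm, an inner nuclear membrane protein, read 5.5, 47 and 1.5 in Nras GFPhigh cells, against 273, 373 and 891 in Nras GFP- cells. Its signals in Nras GFPhigh cells were close to the lower quartile, its log2 fold change of -5.95 became -2.27 after adding 100 units, and its second probe set gave 0.73.

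Genes of ribosome biogenesis and the MYC network mostly read lower in Nras GFPhigh cells, and ribosomal protein genes mostly higher on the deposited scale. Of 31 genes of ribosome biogenesis and the MYC network, 22 had a fold change below 0, against 46.8% of all genes. Separated lower were 6 (19.4%) and higher 0, beside 4.07% and 3.71% of all genes. The 22 include Myc, Max, Mnt and Mxd4 of the MYC network, whereas Mycn, Mxd1, Mxd3 and Mxi1 lay above 0. The median of this list was -0.30. Its list score was -0.088, -0.23 and -0.15 in Nras GFPhigh cells, against 0.26, 0.30 and 0.18 in Nras GFP- cells, without overlap. Wdr12, a part of the PeBoW complex that processes large subunit rRNA, read 2409.5, 1732 and 692 in Nras GFPhigh cells, against 6283, 4262 and 4034 in Nras GFP- cells, a log2 fold change of -1.74 ± 0.40 (SE). The fold change was -1.34 within replicates 1 and 2 and -2.54 within replicate 3. Gnl3, the nucleolar GTPase nucleostemin, read 966, 1284 and 969 in Nras GFPhigh cells, against 3208, 2351 and 2983 in Nras GFP- cells, a log2 fold change of -1.41 ± 0.41 (SE) beside -0.97 in wild-type cells. Nolc1, a nucleolar chaperone, read 3544, 1035 and 1478 in Nras GFPhigh cells, against 5911, 5569.9 and 3451 in Nras GFP- cells, where the highest label-retaining and the lowest cycling sample just crossed. Npm1, also among the 4 members of smallest p, went the other way without being separated. Its log2 fold change was 0.47, at an unadjusted p of 0.0138 in limma, and 9 members of the list lay above 0. Myc, the transcription factor that drives this programme, read 2294, 1978 and 2022 in Nras GFPhigh cells, against 3532, 4438 and 3214 in Nras GFP- cells, a log2 fold change of -0.82 ± 0.30 (SE) with all cycling samples above.

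The next 3 genes are outside the list, read lower and were picked after their values were seen. Grwd1, a nucleolar protein of ribosome assembly, read 68.9, 191 and 214 in Nras GFPhigh cells, against 3835, 2714 and 778 in Nras GFP- cells. Pus7, a pseudouridine synthase, read 107, 308 and 447 in Nras GFPhigh cells, against 2458, 3138 and 2125 in Nras GFP- cells. Slc7a5, a transporter of large neutral amino acids, read 7.1, 63.6 and 92.3 in Nras GFPhigh cells, against 2363, 395 and 604 in Nras GFP- cells.

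For cytoplasmic ribosomal proteins, 18 of 20 had a fold change above 0, against 53.2% of all genes. Separated higher were 7 (35%) and lower none, beside 3.71% and 4.07% of all genes. The median was 0.49, and the fold changes were small but even. Rps14 read 16334, 15957 and 11440 in Nras GFPhigh cells, against 9879, 8817 and 9464 in Nras GFP- cells, a log2 fold change of 0.62 ± 0.14 (SE). Rpl11 read 13788, 15818 and 11372 in Nras GFPhigh cells, against 9364, 7226 and 9099 in Nras GFP- cells, and Rpl7 read 11719, 10981 and 8611 in Nras GFPhigh cells, against 6943, 7108 and 7244 in Nras GFP- cells, each without overlap. Rps24 read 14803, 16346 and 9910.1 in Nras GFPhigh cells, against 7640.2, 8284 and 8530 in Nras GFP- cells, but its 6 probe sets gave fold changes between -0.62 and 1.28. This direction is not independent of the scaling: the list median was 0.063 after quantile normalization and 0.00057 after median centring, where all genes moved by -0.15 and -0.49. Of the 20 genes, 18 are among the 10% of tested genes of highest signal, whose median was also above 0, and the list median was 0.66 within replicates 1 and 2 and 0.21 within replicate 3.

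Transcription factors of HSC identity were mixed, with 18 of 30 above 0, against 53.2% of all genes. Separated higher were 4 (13.3%) and lower 1 (3.33%), beside 3.71% and 4.07% of all genes. The list median of 0.26 became -0.23 after median centring. Gfi1, a repressor known to restrain HSC division, read 5204, 4314 and 2836 in Nras GFPhigh cells, against 80.8, 403 and 719.6 in Nras GFP- cells. All 3 label-retaining samples lay far above, the log2 fold change was 3.80 ± 0.81 (SE), and it was 4.71 within replicates 1 and 2 and 1.98 within replicate 3. In wild-type cells it was 2.39. Mllt3, a chromatin reader that keeps HSC genes on, read 10170.2, 10679 and 8538 in Nras GFPhigh cells, against 7078, 5274 and 5357 in Nras GFP- cells, a log2 fold change of 0.74 ± 0.15 (SE). Lmo2, a bridging protein of the HSC factor complex, read 15194, 15522 and 11773 in Nras GFPhigh cells, against 9959, 9328 and 9212 in Nras GFP- cells, and Hlf, a leucine zipper factor of dormant HSCs, read 10196, 12109.7 and 8472 in Nras GFPhigh cells, against 7763, 7052 and 4639.9 in Nras GFP- cells. The fold changes of Lmo2 and Hlf were 0.57 and 0.68, or 0.081 and 0.35 after quantile normalization. Etv6, an ETS factor needed by adult HSCs, was the member separated lower and read 3336, 2060 and 4417 in Nras GFPhigh cells, against 5252, 5568 and 4560 in Nras GFP- cells. Mecom, described above, did not reach an unadjusted p of 0.05, at a log2 fold change of 0.49 ± 0.24 (SE).

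Among 19 receptors and surface or membrane-linked genes of HSCs, 3 (15.8%) were separated higher and 2 (10.5%) lower, beside 3.71% and 4.07% of all genes. Procr, the endothelial protein C receptor used to sort HSCs of high purity, read 5916, 7777 and 4766 in Nras GFPhigh cells, against 1473, 2753 and 3013 in Nras GFP- cells, a log2 fold change of 1.39 ± 0.36 (SE). The change was 1.75 within replicates 1 and 2 and 0.66 within replicate 3. Ctnnal1, the alpha-catulin gene used as an HSC reporter, read 5104, 3052 and 2300.4 in Nras GFPhigh cells, against 766, 32.2 and 908 in Nras GFP- cells. Alcam, an adhesion receptor, read 2548, 2897 and 3991 in Nras GFPhigh cells, against 1884, 2433 and 855 in Nras GFP- cells. Cd34, a surface sialomucin that mouse HSCs gain when they are activated, read 86.2, 433 and 1578 in Nras GFPhigh cells, against 1343, 3987 and 3182 in Nras GFP- cells, where Nras GFPhigh replicate 3 lay within the cycling range and the other two lay below it. Its log2 fold change was -2.73 ± 0.89 (SE). Slamf1, the gene of the HSC sort marker CD150, read 989, 155 and 895 in Nras GFPhigh cells, against 4046, 1581 and 579 in Nras GFP- cells, a fold change of -2.69 within replicates 1 and 2 and 0.63 within replicate 3, and its 3 probe sets lay between -3.28 and 4.55. The 2 members separated lower were Itga2b, an integrin of HSCs and megakaryocytes, and Fgd5, an exchange factor used as an HSC reporter, which read 219, 265 and 652 in Nras GFPhigh cells, against 879.8, 706 and 778 in Nras GFP- cells.

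Imprinted genes, expressed from the copy of 1 parent and known to be high in resting HSCs, read higher in Nras GFPhigh cells. Of 20 tested, 16 had a fold change above 0, against 53.2% of all genes. Separated higher were 6 (30%) and lower none, beside 3.71% and 4.07% of all genes. The list median was 1.05, or 0.32 in wild-type cells. Within replicates 1 and 2 the median was 1.37, and within replicate 3 it was 0.45. Peg3, a zinc finger gene of the paternal copy, read 549.5, 694 and 529 in Nras GFPhigh cells, against 16.6, 4.3 and 3.1 in Nras GFP- cells. Its log2 fold change was 6.60 ± 1.19 (SE), or 2.67 after adding 100 units, since the cycling signals were near the background, and its 5 probe sets lay between -1.59 and 6.60.

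Meg3, the long noncoding RNA of the Dlk1-Meg3 locus, read 1102, 1856 and 2161 in Nras GFPhigh cells, against 132, 235 and 379 in Nras GFP- cells, a log2 fold change of 2.85 ± 0.78 (SE). In wild-type samples it read 1107, 2417 and 2935 in wild-type GFPhigh cells, against 48.3, 128 and 307 in wild-type GFP- cells. All 11 of its probe sets gave a fold change above 0, from 0.36 to 4.47. Rian, a second noncoding RNA of that locus, read 81.8, 4333 and 2849 in Nras GFPhigh cells, against 17.3, 84.9 and 93.6 in Nras GFP- cells, with Nras GFPhigh replicate 1 near the cycling samples. Grb10, an adaptor that dampens insulin receptor signalling, read 10902, 6213 and 5663 in Nras GFPhigh cells, against 4776, 3665 and 4393 in Nras GFP- cells, a log2 fold change of 0.77 ± 0.24 (SE). Peg10, a gene derived from a retrotransposon, read 533, 602 and 313 in Nras GFPhigh cells, against 20.9, 31.7 and 120.2 in Nras GFP- cells. Dlk1, a membrane protein of the same locus as Meg3, read 100, 212 and 61.1 in Nras GFPhigh cells, against 40.5, 4.2 and 37 in Nras GFP- cells.

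**Figure D3:**
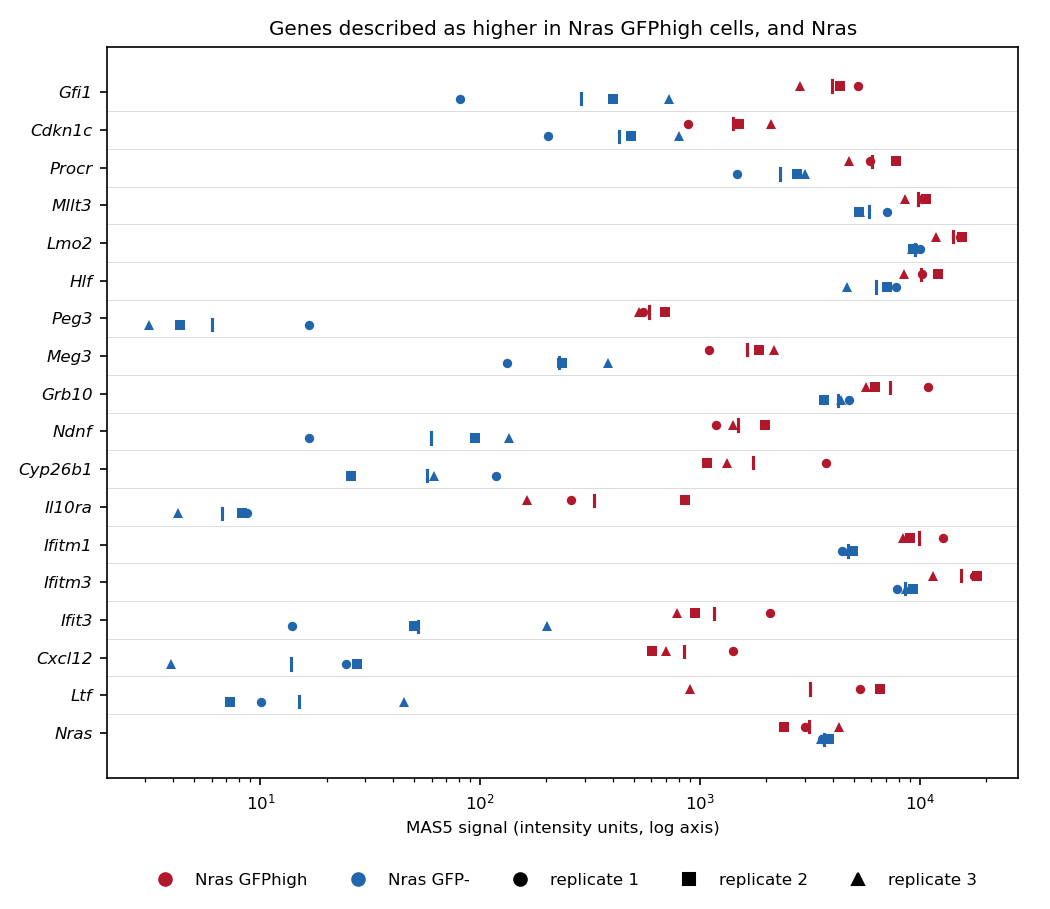
Signals of 17 genes described as higher in Nras GFPhigh cells, and of Nras, in each Nras sample, on a log axis of intensity units; red is Nras GFPhigh, blue is Nras GFP-, shapes are replicates and vertical bars are group geometric means. Each of the 17 genes is without overlap, and the cycling signals of Peg3, Il10ra, Cxcl12 and Ltf fall below 50 units, whereas the Nras signals of the groups overlap.

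Genes of the RAS to ERK cascade and its outputs lay about evenly on both sides. In the cascade between RAS and ERK, 12 of 24 tested genes had a fold change above 0 and 12 below, with a median of -0.011. Separated was 1 gene, lower, which is 4.17% beside 4.07% of all genes. That gene was Shc1, an adaptor that couples receptors to RAS, which read 712, 269 and 832 in Nras GFPhigh cells, against 1664, 2033 and 1141 in Nras GFP- cells, a log2 fold change of -1.53 ± 0.59 (SE). In wild-type cells it was 0.77, and the unadjusted interaction p in limma was 0.0158. Of 23 ERK outputs and feedback genes, 11 lay above 0 and 12 below. Separated lower were 3, Etv5, Spred2 and Myc, which is 13% beside 4.07% of all genes.

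Etv5, an ETS factor induced by ERK, read 172, 988 and 1735 in Nras GFPhigh cells, against 3673, 2092 and 3165 in Nras GFP- cells, a log2 fold change of -2.12 ± 0.73 (SE), though its 3 probe sets lay between -2.12 and 1.12. Spred2, an inhibitor of the step from RAS to RAF, read 1048, 357 and 1162 in Nras GFPhigh cells, against 2196, 1770.4 and 1372 in Nras GFP- cells. Dusp6, the phosphatase that switches ERK off and the usual readout of its activity, read 1985, 2074 and 3086 in Nras GFPhigh cells, against 3642, 2071 and 2686 in Nras GFP- cells, and Spry2, a feedback inhibitor, read 815, 534 and 614 in Nras GFPhigh cells, against 1387, 438 and 1039.9 in Nras GFP- cells. Both overlapped, with log2 fold changes of -0.22 ± 0.39 (SE) and -0.41 ± 0.58 (SE). Egr1, an immediate early factor induced by ERK and known to hold HSCs in their niche, read 18004, 11024 and 10140.1 in Nras GFPhigh cells, against 10726, 6303 and 6853 in Nras GFP- cells, where the lowest label-retaining and the highest cycling sample just crossed. On the log2 scale the difference was 0.71 ± 0.25 (SE).

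Both STAT5 genes, which carry cytokine signals, read lower. Stat5a read 1216, 2496 and 1786 in Nras GFPhigh cells, against 3393, 2904 and 2736 in Nras GFP- cells, a log2 fold change of -0.77 ± 0.31 (SE). Stat5b read 945, 597 and 1011 in Nras GFPhigh cells, against 4985, 1786 and 1508 in Nras GFP- cells, a log2 fold change of -1.52 ± 0.59 (SE). Of 22 genes of this pathway, 14 nevertheless lay above 0, against 53.2% of all genes. Separated lower were 2 (9.09%), Stat5a and Stat5b, beside 4.07% of all genes. Separated higher was 1 (4.55%), beside 3.71% of all genes. It was Socs3, a feedback inhibitor that read 83.6, 1576 and 33.9 in Nras GFPhigh cells, against 21.3, 3.5 and 6.4 in Nras GFP- cells. The STAT5 target genes Cish and Socs2 overlapped between the groups, and Cish read 20.7, 239.8 and 219 in Nras GFPhigh cells, against 18.1, 206 and 166 in Nras GFP- cells. In the PI3K, mTOR and FOXO list, 17 of 23 lay above 0, beside 53.2% of all genes, with a median of 0.46, or -0.029 after median centring. Separated higher was 1 (4.35%, beside 3.71% of all genes), Pik3r1, the regulatory subunit of PI3K. It read 13204, 12119 and 8399 in Nras GFPhigh cells, against 5472, 6576 and 5948 in Nras GFP- cells, a log2 fold change of 0.88 ± 0.18 (SE), and each of its 4 probe sets gave a fold change above 0. Foxo3, a factor that protects resting HSCs, read 6726, 4582 and 3602 in Nras GFPhigh cells, against 5356, 6015 and 5025 in Nras GFP- cells.

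Interferon response genes read higher in Nras GFPhigh cells on the deposited scale, with 16 of 22 above 0, against 53.2% of all genes. Separated higher were 7 (31.8%) and lower 0, beside 3.71% and 4.07% of all genes. The list median was 0.46. The median was -0.031 after median centring, which moved all genes by -0.49, so the direction is not independent of the scaling. In wild-type cells the median was 0.069. The list score was 0.81, 0.25 and 0.38 in Nras GFPhigh cells, against -1.21, -0.17 and 0.20 in Nras GFP- cells, so that Nras GFP- replicate 1 was lowest, and the median was 0.73 within replicates 1 and 2 and 0.20 within replicate 3. Ifitm1, a membrane protein that blocks virus entry, read 12732, 9023 and 8331 in Nras GFPhigh cells, against 4396, 4970.1 and 4694 in Nras GFP- cells. It was among the 11 genes at the smallest adjusted p, with a log2 fold change of 1.07 ± 0.18 (SE) and 0.39 in wild-type cells. Its relative Ifitm3 read 17637, 18149 and 11398 in Nras GFPhigh cells, against 7873, 9249.8 and 8631 in Nras GFP- cells, a log2 fold change of 0.85 ± 0.16 (SE). Both genes are known to be high in stem cells without interferon.

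Other interferon-induced genes were less even. Ifit3, which binds foreign RNA, read 2083, 951 and 780.5 in Nras GFPhigh cells, against 13.9, 50.1 and 202 in Nras GFP- cells, a log2 fold change of 4.47 ± 1.13 (SE). The change was 5.74 within replicates 1 and 2 and 1.95 within replicate 3, and in wild-type cells it was 0.045. Isg20, an RNA exonuclease, read 1681, 455 and 561 in Nras GFPhigh cells, against 14.8, 69.4 and 212 in Nras GFP- cells, Usp18, which removes ISG15, read 351, 344 and 352 in Nras GFPhigh cells, against 13.7, 52.3 and 181 in Nras GFP- cells, and the GTPase gene Gbp3 read 3972, 1360.5 and 1982 in Nras GFPhigh cells, against 262, 585 and 1359 in Nras GFP- cells. In each of them Nras GFP- replicate 1 was lowest and replicate 3 highest among the cycling samples. Other members overlapped: Ifit1 read 1082, 38.1 and 1116 in Nras GFPhigh cells, against 119.7, 1105 and 923 in Nras GFP- cells, and Irf7 read 74.2, 164 and 136 in Nras GFPhigh cells, against 43.2, 297 and 173 in Nras GFP- cells. Of the 6 members below 0, none separated, Oas2 lay lowest. Its log2 fold change was -2.72, at an unadjusted p of 0.0275 in limma.

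The separated higher genes of smallest p were of several kinds. Il10ra, the ligand-binding chain of the interleukin 10 receptor, read 258, 853 and 164 in Nras GFPhigh cells, against 8.7, 8.2 and 4.2 in Nras GFP- cells, an unadjusted p of 3.6e-05 in limma. The cycling signals were near the background, and its log2 fold change of 5.62 ± 0.91 (SE) became 2.07 after adding 100 units. All 3 of its probe sets were higher, between 2.48 and 5.62, and in wild-type cells the fold change was 3.56. Cyp26b1, an enzyme that breaks down retinoic acid and is known from dormant HSCs, read 3731, 1076 and 1329.8 in Nras GFPhigh cells, against 118, 25.7 and 61.8 in Nras GFP- cells, a log2 fold change of 4.93 ± 0.84 (SE). The change was 5.18 within replicates 1 and 2, 4.43 within replicate 3 and 2.81 in wild-type cells. Ndnf, a secreted factor first known from neurons, read 1174, 1964 and 1412 in Nras GFPhigh cells, against 16.6, 94.1 and 135 in Nras GFP- cells, and in wild-type cells its fold change was 5.96.

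Timp3, an inhibitor of matrix metalloproteinases, read 1381, 807 and 194 in Nras GFPhigh cells, against 15, 7.1 and 39.5 in Nras GFP- cells, and its log2 fold change of 5.22 became 2.62 after adding 100 units. The fold change was 6.68 within replicates 1 and 2 and 2.30 within replicate 3. Tnfsf11, the ligand RANKL, read 158, 169 and 537 in Nras GFPhigh cells, against 2.2, 7.9 and 3.4 in Nras GFP- cells, which is 1.76 on the log2 scale after adding 100 units. Kif21a, a kinesin that moves along microtubules, read 5876, 2618 and 1782 in Nras GFPhigh cells, against 25, 41.5 and 279 in Nras GFP- cells, and Evi5, a regulator of RAB11, read 3171, 2898 and 3357 in Nras GFPhigh cells, against 274, 544 and 1086 in Nras GFP- cells. Adap2, a protein with an ARF GTPase-activating domain, read 78.8, 253 and 763 in Nras GFPhigh cells, against 9.7, 8.3 and 10.3 in Nras GFP- cells. Kif21a, Evi5 and Adap2 had wild-type fold changes of -0.75, 0.73 and -0.60.

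On the lower side, H2-Ob, a chain of the MHC class II regulator H2-O, read 1.2, 19.7 and 14.6 in Nras GFPhigh cells, against 1073, 2117 and 525 in Nras GFP- cells. All 3 label-retaining signals were in the range of the background, and the log2 fold change of -7.24 became -3.40 after adding 100 units. In wild-type cells it was -4.11. H2-DMb2, a chain of the partner molecule that loads class II peptides, ran the other way and read 1010.2, 671 and 475 in Nras GFPhigh cells, against 188, 92.4 and 243 in Nras GFP- cells. B3galt6, a galactosyltransferase of proteoglycan synthesis, read 33.3, 17.9 and 38.7 in Nras GFPhigh cells, against 2201, 2104 and 507 in Nras GFP- cells, a log2 fold change of -5.54 and -3.49 after adding 100 units, though its 3 probe sets lay between -5.54 and 2.33. Tmem98, a membrane protein, read 101, 71.2 and 82.5 in Nras GFPhigh cells, against 3011, 1237 and 1156 in Nras GFP- cells. Ddx19b, an RNA helicase of mRNA export, read 34.7, 61.3 and 234 in Nras GFPhigh cells, against 2179.5, 905 and 1189 in Nras GFP- cells. Dnpep, an aspartyl aminopeptidase, read 1042, 1259 and 2031 in Nras GFPhigh cells, against 10287, 6565 and 4659.5 in Nras GFP- cells, but its 5 probe sets lay between -2.29 and 0.44.

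Markers of other blood cells and of stroma read high in some Nras GFPhigh samples. Of 16 tested genes of neutrophil granules, 14 had a fold change above 0, against 53.2% of all genes. Separated higher were 5 (31.25%), beside 3.71% of all genes. The median of these neutrophil genes was 2.79, beside -0.31 in wild-type cells. The summed signal of all 17 listed neutrophil genes on the array was 61143, 80536 and 13871 in Nras GFPhigh cells, against 12366, 8692 and 8898 in Nras GFP- cells. Nras GFPhigh replicates 1 and 2 thus stood apart, and replicate 3 lay nearer the cycling samples. The median was 4.40 within replicates 1 and 2 and 0.41 within replicate 3. Ltf, the granule protein lactoferrin, read 5348, 6599.6 and 903 in Nras GFPhigh cells, against 10.1, 7.3 and 45.1 in Nras GFP- cells. Camp, the granule peptide cathelicidin, read 3131, 3356 and 949.6 in Nras GFPhigh cells, against 126, 44.5 and 64.9 in Nras GFP- cells, and Ngp, a neutrophil granule protein, read 1659, 8790 and 502 in Nras GFPhigh cells, against 138, 4.6 and 98.6 in Nras GFP- cells. Ltf also read 708, 31.5 and 41.2 in wild-type GFPhigh cells, against 1014, 20.6 and 1413 in wild-type GFP- cells. Genes of earlier granules overlapped: Mpo read 2023, 8224 and 156 in Nras GFPhigh cells, against 30.6, 3690.1 and 3229 in Nras GFP- cells, and Elane read 57.7, 388 and 24.7 in Nras GFPhigh cells, against 28.4, 118 and 107 in Nras GFP- cells.

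The 17 listed erythroid genes on the array had a summed signal of 29811, 31529 and 12172 in Nras GFPhigh cells, against 14614, 18437 and 12364 in Nras GFP- cells, again highest in Nras GFPhigh replicates 1 and 2. Of 13 tested, 10 had a fold change above 0 and 3 (23.1%) were separated higher, beside 53.2% and 3.71% of all genes. The list median was 0.55, and -0.35 within replicate 3. The 3 below 0, none separated, were Epor, Car1 and Gata1, at -1.90, -1.48 and -1.02. Slc4a1, the anion exchanger of red cells, read 6854, 3918 and 37.2 in Nras GFPhigh cells, against 17.3, 24.8 and 20.7 in Nras GFP- cells. Alas2, the first enzyme of haem synthesis in red cells, read 519, 1121 and 102 in Nras GFPhigh cells, against 20.5, 4.4 and 3.6 in Nras GFP- cells. Of 20 endothelial and stromal genes, 18 lay above 0 and 4 (20%) were separated higher, beside 53.2% and 3.71% of all genes. The list median was 0.63. All 28 listed genes on the array had summed signals of 30865, 21584 and 21964 in Nras GFPhigh cells, against 14112, 18546 and 15249 in Nras GFP- cells. The 4 separated higher were Cxcl12, the chemokine that holds HSCs in the marrow, Emcn, a sialomucin, and the matrix genes Sparc and Col3a1.

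Cxcl12 read 1412, 602 and 701 in Nras GFPhigh cells, against 24.4, 27.6 and 3.9 in Nras GFP- cells, and in wild-type samples it read 21.6, 49.3 and 167 in wild-type GFPhigh cells, against 68.7, 44.9 and 239 in wild-type GFP- cells. Emcn, which HSCs themselves express, read 469, 1333 and 1284 in Nras GFPhigh cells, against 29.6, 58.9 and 431 in Nras GFP- cells. Sparc read 1179.6, 931 and 128 in Nras GFPhigh cells, against 71.1, 7.9 and 58.3 in Nras GFP- cells, and Col3a1 read 525, 1344 and 20.4 in Nras GFPhigh cells, against 5.6, 4.4 and 3.6 in Nras GFP- cells, both lowest among the label-retaining samples in replicate 3. Of 30 listed endothelial and stromal genes, 8 were on the array but too low to be tested, among them Cdh5, Lepr, Pdgfra and Adipoq. In such bulk RNA, fewer cells of a type and less RNA per cell cannot be told apart, and the part of such cells in any result above was not tested.

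**Figure D4:**
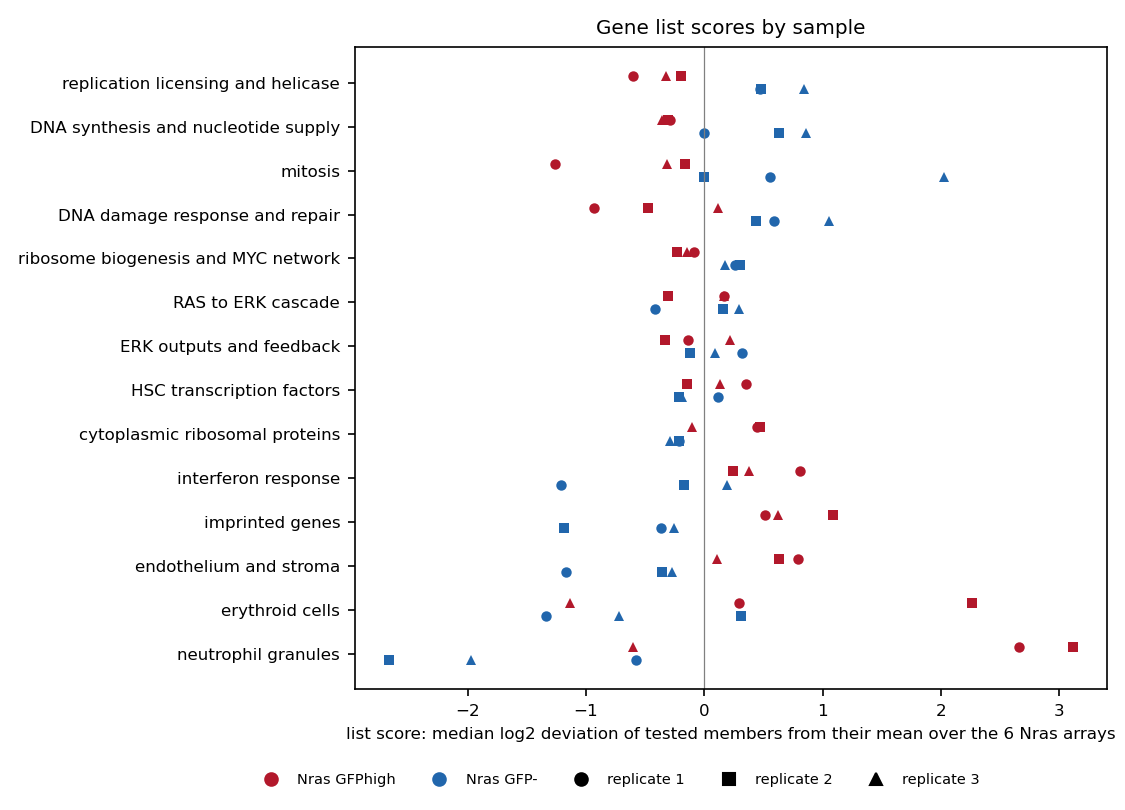
Score of 14 gene lists in each Nras sample, the median log2 deviation of the tested members from their mean over the 6 Nras arrays; red is Nras GFPhigh, blue is Nras GFP-, and shapes are replicates. Scores of the replication, mitosis and DNA repair lists lie lower in Nras GFPhigh cells without overlap, those of the RAS to ERK cascade and of ERK outputs overlap, and the neutrophil scores of Nras GFPhigh replicates 1 and 2 stand apart from replicate 3, whereas the erythroid score is high in Nras GFPhigh replicate 2 alone and overlaps between the groups.

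Set against wild-type cells, the log2 fold changes with label retention had an SD over genes of 1.35 in Nras cells and 0.96 in wild-type cells. The array weights of the Nras samples, given above, were mostly lower than those of the wild-type samples, which were 1.76, 0.522 and 2.32 in wild-type GFPhigh samples, against 2.46, 1.13 and 2 in wild-type GFP- samples. The part of this scatter in the wider fold changes was not tested. Over 12083 genes the log2 fold changes of the genotypes had the same sign in 55.4% and a Pearson r of 0.15, a description across genes, which are not independent replicates. The comparisons share no samples. Of genes separated higher in Nras cells, 62.7% lay above 0 in wild-type cells, against 47.8% of all genes, and of those separated lower, 67.1% lay below 0, against 52.2%. Separated in both genotypes were 21 higher and 11 lower genes, and 9 were separated in opposite directions. The 21 include Il10ra, Gfi1, Cyp26b1, Cdkn1c, Meg3, Ndnf, Ifitm1, Mllt3, Plk2 and Epas1, and the 11 include Cdk6, Ezh2, Mcm5, Gnl3 and H2-Ob. Plk2, a kinase that p53 induces, read 2287, 1158 and 1345 in Nras GFPhigh cells, against 267, 25 and 309.9 in Nras GFP- cells. Epas1, the hypoxia-inducible factor HIF-2 alpha, read 244, 1766 and 46.4 in Nras GFPhigh cells, against 16.3, 17.1 and 1.2 in Nras GFP- cells.

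The list medians compare as follows. Replication licensing was at -0.97 in Nras and -1.04 in wild-type cells, and mitosis at -1.40 in Nras and -1.12 in wild-type cells. DNA synthesis was at -0.94 in Nras and -0.26 in wild-type cells, interferon response at 0.46 in Nras and 0.069 in wild-type cells, and ribosomal proteins at 0.49 in Nras and 0.077 in wild-type cells. No gene's fold change differed between the genotypes at an adjusted p under 0.05, where the smallest was 0.274, and 566 genes (4.68%) did at an unadjusted p under 0.05. Without wild-type GFPhigh replicate 2, 1 transcript passed, 1810019N24Rik, which is named after its values were seen. Of the 22 interferon genes 6 had such a p, as had 6 of 16 neutrophil genes, 1 of 20 replication genes and 1 of 28 mitotic genes. Usp27x, a deubiquitinase, had the smallest interaction p, and it read 57.7, 94.4 and 149 in Nras GFPhigh cells, against 956, 1838 and 1338 in Nras GFP- cells. In wild-type samples it read 2330.4, 4343 and 1739 in wild-type GFPhigh cells, against 982, 326 and 256 in wild-type GFP- cells, so that the genotypes ran in opposite directions. Dnpep and Cxcl12, described above, were also among the 6 genes of smallest interaction p.

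**Figure D5:**
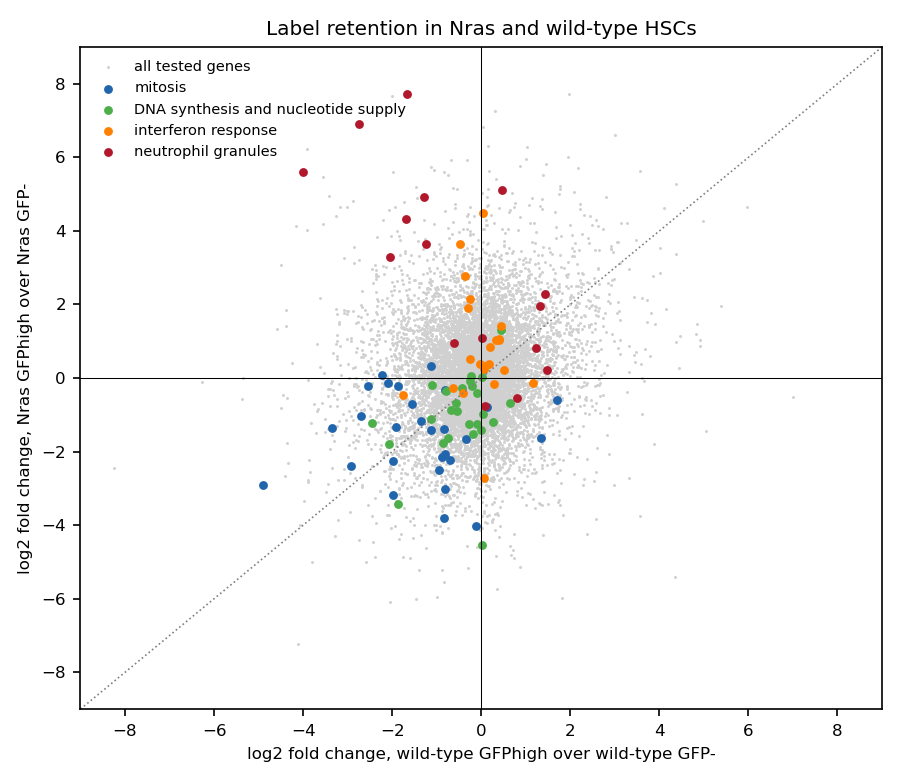
Log2 fold change of every tested gene with label retention in wild-type cells (x axis) and in Nras cells (y axis), GFPhigh over GFP- in both; coloured points are 4 gene lists and the dotted line marks equal change. Mitotic genes lie mostly below 0 on both axes, with medians of -1.40 in Nras and -1.12 in wild-type cells, while many neutrophil genes lie above 0 in Nras cells and below it in wild-type cells.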

How the data were processed

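Total RNA of sorted HSCs was measured on 12 one-colour Affymetrix arrays, 3 biological replicates for each of the 4 groups. The deposited values are intensity, MAS5 signals on a linear scale, made with MAS5 per the submitters' processing notes, which give no version. Whether replicates were pooled is not stated. Of 45101 probe sets, 64 controls, 932 with several gene symbols and 9160 with none were left out, and 34945 with exactly 1 symbol were kept, by the platform annotation. Signals were taken to log2 without further scaling, with 3 deposited values at 0 set to 0.1. For each of 18193 genes the probe set of highest mean log2 signal was taken, and the 12083 genes above the median of their array in at least 3 arrays were tested. The number of arrays limits the precision.

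One limma model with 4 group means and an intensity trend gave both fold changes and their interaction, with Benjamini-Hochberg adjustment over all tested genes. The p values and SE set each difference against the spread within groups, pooled over all 12 arrays, wild-type ones included. The wild-type arrays mostly had higher weights than the Nras arrays. With only the 6 Nras samples, 781 genes had an unadjusted p under 0.05 in limma, against 1470 with all arrays. Genes whose groups did not overlap at an unadjusted p under 0.05 are called separated. Lists were described by counts and medians, with no test. The genes named are the 12 higher and 12 lower separated genes of smallest p, up to 4 members of smallest p of each list, genes fixed in the list of markers and regulators, 6 genes of smallest interaction p, and further list members as examples. The members and lists were chosen with earlier results of these data known. Promoter sequences are from RefSeq (GRCm38.p6), searched on both strands. Samples of the same replicate number had correlations of deviations of 0.076, -0.0036 and 0.11, below the 0.1 set for every pair in 2 of 3, so they were not treated as pairs, although replicate 3 differs from the others in Xist in every group. The limma fit and the separation rule were run on simulated data in which each gene had the same spread in every array, unlike the real arrays. The filter, the probe set choice, the lists and the motif search were not tested in this way. Alternatives were array weights, other filters, scalings, probe set rules and pseudocounts (15.5 and 100), a replicate block, subsets of arrays, and no intensity trend. The software was limma 3.58.1 and statmod 1.5.0 in R 4.3.3, and pandas 2.3.3 and matplotlib 3.10.9 in Python 3.11.15.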

Additional observations from a re-analysis of the deposited data

Results flagged for a closer look

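In 4 genes among those described, all 3 Nras GFPhigh samples lay on one side of the Nras GFP- samples and all 3 wild-type GFPhigh samples on the other side of the wild-type GFP- samples. Each difference between the genotypes is the interaction on the log2 scale, and none had an adjusted p under 0.05 in limma. Usp27x had an interaction of -6.42, with an adjusted p of 0.274. Sparc, a matrix protein, had 7.94, or 3.31 after adding 100 units, and in wild-type samples it read 3.6, 12.7 and 9 in wild-type GFPhigh cells, against 256, 37.7 and 148 in wild-type GFP- cells. Cd177, a surface protein of neutrophils, had 7.69, or 2.29 after adding 100 units. It was above the array median only in Nras GFPhigh arrays and so entered the tests through the group in which it is high, which makes its values a description only. It read 182, 967 and 94.1 in Nras GFPhigh cells, against 8.8, 13.2 and 6.5 in Nras GFP- cells, and 8.7, 11.3 and 1.4 in wild-type GFPhigh cells, against 85.9, 11.8 and 54.8 in wild-type GFP- cells. Sdhb, a subunit of respiratory complex II, had 1.57. It read 1961, 2912 and 1714 in Nras GFPhigh cells, against 669.8, 989.8 and 1336 in Nras GFP- cells, and 1314, 1387 and 1433 in wild-type GFPhigh cells, against 1887, 1965 and 1664 in wild-type GFP- cells. The adjusted interaction p of Sparc, Cd177 and Sdhb was 0.956 in each case.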

How the results depend on the processing

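The count of genes past an adjusted p under 0.05 was 3 with median centring (H2-Ob, Nrm and Lig1) and 4 without the arrays of weight under 0.6 (Nrm, Mtmr4, Wdr12 and Mthfd1, 2 of them named after their values were seen). It was 0 under the other alternatives that keep all arrays, 0 too at an adjusted p under 0.1, and 0 to 161 when 1 array was left out, with the counts given above. Separated higher genes numbered 245 with array weights, 859 with no filter, 249 with a filter at the 75th percentile, 155 with median centring, 718 with all probe sets one by one and 796 with replicates 1 and 2 alone, and 409 to 817 with 1 array left out. Separated lower genes numbered 321 with array weights, 884 with all probe sets one by one, 320 with only the 6 Nras samples and 765 with no array of weight under 0.6, and 438 to 880 with 1 array left out. Of the separated genes 47.7% were higher in Nras GFPhigh cells, 18.7% with median centring, 37.6% with quantile normalization and 62.6% with no filter, and the median of all genes shifted by -0.49, -0.15 and 0.24. With a filter at the 75th percentile, the list median was 1.34 for endothelium and stroma. With all probe sets one by one, the list median was -0.059 for CDK inhibitors. With array weights, the list median was -1.20 for replication licensing. With median centring, list medians were -1.46 for replication licensing, -1.43 for DNA synthesis, -0.23 for HSC transcription factors, 0.57 for imprinted genes, -0.029 for PI3K and FOXO targets, -0.051 for p53 and its targets, -0.79 for ribosome biogenesis, 0.00057 for ribosomal proteins, 0.14 for endothelium and stroma and -1.49 for DNA repair. With no filter, the list median was 0.12 for integrins. With replicates 1 and 2 alone, list medians were -0.49 for ribosome biogenesis, 1.19 for endothelium and stroma and -0.57 for DNA repair. With quantile normalization, list medians were 0.038 for HSC transcription factors, 0.063 for ribosomal proteins and 0.18 for endothelium and stroma. With replicate 3 alone, list medians were -1.43 for replication licensing, 0.45 for imprinted genes, 0.21 for ribosomal proteins, 0.41 for neutrophil granules, -0.051 for T cells and NK cells and 0.14 for integrins. With no array of weight under 0.6, list medians were 0.49 for HSC transcription factors, 1.53 for imprinted genes, -0.000133 for MHC class II, -0.22 for ribosome biogenesis, 0.14 for ribosomal proteins, 0.46 for neutrophil granules, -0.57 for DNA repair and 0.034 for integrins. With no shared probe sets, the list median was -1.21 for replication licensing. These moved medians kept their sign except HSC transcription factors, PI3K and FOXO targets and p53 targets with median centring, CDK inhibitors with all probe sets, MHC class II without low-weight arrays, T and NK cells in replicate 3, and integrins in the 3 settings named. Medians of other lists also turned: with median centring interferon response was at -0.031 and JAK-STAT5 signalling at -0.18, with replicate 3 alone erythroid genes were at -0.35 and oxidative phosphorylation at -0.34, and ERK outputs were at 0.39 with no array of weight under 0.6, against -0.14 with all. Those of chromatin genes, the RAS to ERK cascade, glycolysis, TGF-beta factors, mast cells, HSC surface receptors and HSC defining markers turned in at least 1 alternative too. With 1 array left out, list medians ranged -1.20 to -0.70 for replication licensing, -1.15 to -0.72 for DNA synthesis, -1.92 to -0.92 for mitosis, -1.17 to -0.58 for DNA repair, -0.48 to -0.23 for ribosome biogenesis, 0.40 to 0.67 for ribosomal proteins, 0.43 to 0.83 for interferon response, 0.71 to 1.48 for imprinted genes, 0.18 to 0.40 for HSC transcription factors, 1.82 to 4.31 for neutrophil granules and 0.47 to 0.95 for endothelium and stroma. Single genes turned where another probe set stood for them: Tpx2 0.76 with quantile normalization, and without shared probe sets Rps24 -0.62, Dnpep 0.44, Slamf1 4.55 and Foxo1 0.82. With no array of weight under 0.6, Socs2 was at -2.48, against 1.67 with all. The overlapping genes Mki67, Cdkn1a, Cdkn1b, Kit, Nras, Dusp6, Cish and Foxo3 also turned in at least 1 alternative. The cause of the other moves was not tested. The replicate numbers did not meet the criterion for pairs, and only some samples correlated best with their own number, while replicate 3 stands apart in Xist in every group. A replicate block left 0 genes past the threshold (smallest adjusted p 0.163) and separated 434 higher and 479 lower genes. No gene counts or detection calls were used, so signals near the lower quartile of an array bound what can be said of low genes.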

Other observations

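Genes of oxidative phosphorylation had a median log2 fold change of 0.50, with 22 of 29 above 0, against 53.2% of all genes. Separated higher was 1 (3.45%), Sdhb, beside 3.71% of all genes. The list median was 0.74 within replicates 1 and 2 and -0.34 within replicate 3. Median centring moved all genes by -0.49, about the size of this list median, so its direction is not independent of the scaling. Of the 29, 13 are among the 10% of tested genes of highest signal, whose median was also above 0. Cox5b, a subunit of cytochrome oxidase, read 9209.7, 15153 and 6720.2 in Nras GFPhigh cells, against 5169, 6888 and 6738 in Nras GFP- cells, highest in Nras GFPhigh replicate 2. Of 25 genes of glycolysis and the hypoxia response, 11 lay above 0, and the glucose transporter gene Slc2a3 read 658, 2016 and 2446 in Nras GFPhigh cells, against 4721, 6491 and 3010.2 in Nras GFP- cells. Immediate early genes, which cell isolation is known to induce, had 22 of 26 above 0 and 3 (11.5%) separated higher, beside 53.2% and 3.71% of all genes. These 26 genes had a median of 0.70. Their list score was 1.05, -0.032 and 0.11 in Nras GFPhigh cells, against 0.018, -0.40 and -0.39 in Nras GFP- cells, highest in Nras GFPhigh replicate 1. Klf6 read 10411, 7766 and 5817 in Nras GFPhigh cells, against 3603, 4263 and 4405 in Nras GFP- cells, and Nfkbia, the inhibitor of NF-kappaB, read 13230.4, 7798 and 6598 in Nras GFPhigh cells, against 2906, 5753 and 5625 in Nras GFP- cells.

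Of 18 megakaryocyte and platelet genes, 13 lay below 0, against 46.8% of all genes, with a median of -0.56. Of the 18, 2 (11.1%) were separated lower and 1 (5.56%) higher, beside 4.07% and 3.71% of all genes. The thrombin receptor gene F2r read 712, 822 and 3400.1 in Nras GFPhigh cells, against 6279, 3846 and 4559 in Nras GFP- cells, whereas Mmrn1, the platelet protein multimerin, read 5881, 4737 and 4489.6 in Nras GFPhigh cells, against 3738, 1525 and 3035 in Nras GFP- cells. Among 23 integrins and adhesion genes the median was -0.54, with 12 below 0 and 11 above. None was separated lower and 1 (4.35%) was separated higher, beside 4.07% and 3.71% of all genes. The separated gene was Itgb7, a lymphocyte integrin chain, which read 2165, 2743 and 1723 in Nras GFPhigh cells, against 349.5, 891 and 789 in Nras GFP- cells. Gja1, Itgal and Selp, also among the 4 members of smallest p, read lower without being separated. Their log2 fold changes were -4.39, -3.38 and -2.98. Bmpr1a, a receptor of bone morphogenetic proteins, read 448, 687 and 567 in Nras GFPhigh cells, against 2.2, 51.8 and 95.2 in Nras GFP- cells. Of 13 lymphoid priming genes, 10 lay above 0, against 53.2% of all genes. Separated higher was 1 and lower 1 (7.69% each), beside 3.71% and 4.07% of all genes. Satb1, a chromatin organiser, was separated higher and read 1666, 1115 and 562 in Nras GFPhigh cells, against 379, 228 and 288 in Nras GFP- cells. Il7r, the interleukin 7 receptor, overlapped and read 332, 271 and 3.7 in Nras GFPhigh cells, against 4.8, 2.6 and 12.4 in Nras GFP- cells. Tcf3 was separated lower, at a log2 fold change of -1.89, and Flt3 was at -2.60 without being separated.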
